A study of Homo sapiens with 39 samples.

Results

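The Wnt/beta-catenin target genes described here are 10 genes that the pathway is known to switch on in colon cells: AXIN2, NKD1, NOTUM, ZNRF3, RNF43, LGR5, ASCL2, TCF7, LEF1 and SP5. They were taken by name, and all 10 were found among the 45435 genes measured in every table. RNA-seq was available for 39 libraries of HCT116 colorectal cancer cells in 13 groups of 3. The parental group was the Flp-In host line, with no added construct. Each of the other 12 groups was 1 line that carries an inducible construct for 1 isoform of the transcription factor HNF4alpha fused to GFP, numbered isoform 1 to isoform 12. All groups, the parental cells included, were treated with 2.5 µg/ml doxycycline for 48 h without selection antibiotics. Earlier, blasticidin S and zeocin had been used to maintain the parental cells and blasticidin S and hygromycin B the lines. Every isoform was represented by 1 line, no line carried GFP alone, and the labels do not say whether a line was 1 clone, so isoform, line, GFP and earlier antibiotic cannot be told apart in a comparison with the parental cells.

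In Wnt signalling, a destruction complex built on APC and the Axin scaffold marks beta-catenin for degradation. When Wnt binds Frizzled and LRP receptors the complex is held inactive, and beta-catenin enters the nucleus and activates genes with DNA-binding proteins of the TCF/LEF family. Many of the targets act back on the pathway, and in the crypts of the intestine the pathway maintains stem cells. HCT116 cells carry an activating mutation in CTNNB1, the gene of beta-catenin, so their pathway is on without added Wnt.

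The promoters of SP5 and TCF7 are shown because SP5 was lower than in the parental cells in several lines while TCF7 changed little. RefSeq's promoter table (GRCh38.p14, 250 bases before to 50 after the start site) held an entry for 4 of the 10 genes. Capitals mark CTTTGAT, the core of the site that TCF/LEF proteins bind. The SP5 promoter lies at chr2:170715087-170715386 on the plus strand and the TCF7 promoters at chr5:134115363-134115662 and chr5:134123368-134123667 on the plus strand.
SP5: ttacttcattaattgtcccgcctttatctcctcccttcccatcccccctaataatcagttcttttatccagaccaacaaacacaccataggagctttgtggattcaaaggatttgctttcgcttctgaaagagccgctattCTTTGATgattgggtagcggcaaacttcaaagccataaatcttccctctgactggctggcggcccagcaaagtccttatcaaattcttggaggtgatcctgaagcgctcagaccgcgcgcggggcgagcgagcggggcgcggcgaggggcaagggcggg
TCF7 promoter 1: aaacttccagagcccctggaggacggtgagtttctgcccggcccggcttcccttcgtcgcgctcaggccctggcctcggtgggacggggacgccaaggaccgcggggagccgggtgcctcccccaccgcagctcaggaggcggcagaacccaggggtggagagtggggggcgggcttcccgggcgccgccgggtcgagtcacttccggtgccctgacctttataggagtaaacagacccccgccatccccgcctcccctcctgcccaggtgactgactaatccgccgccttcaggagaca
TCF7 promoter 2: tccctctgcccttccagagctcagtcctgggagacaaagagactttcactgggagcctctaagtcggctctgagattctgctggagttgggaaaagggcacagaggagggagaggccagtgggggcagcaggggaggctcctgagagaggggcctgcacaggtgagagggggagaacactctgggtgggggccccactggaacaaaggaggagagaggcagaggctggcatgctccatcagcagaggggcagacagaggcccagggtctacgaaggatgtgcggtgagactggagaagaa
SP5 held CTTTGAT at 142 to 148 of the 300 bases, and neither TCF7 promoter held it on either strand. The promoters of LEF1 and RNF43, not shown, also lacked it, and NOTUM, AXIN2, NKD1 and ZNRF3 had no entry. Of all 35116 promoters in the table, 2.62% held CTTTGAT. The shorter motif CAAAG, whose reverse complement lies within CTTTGAT, occurred 5 times in the SP5 promoter, 2 times in TCF7 promoter 2 and at least 1 time in 47.5% of all promoters. CAAAGTCCA, an HNF4-type site, was in none of these 3 promoters and in 0.384% of all promoters. These matches describe the letters in the windows only.

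HNF4A RNA, summed over its 12 rows, was 31.5 TPM in the parental cells. TPM is an abundance per transcript length that sums to nearly the same total in each library. HNF4A rose in all 12 lines, by 4.24 to 5.04 on the log2 scale. This sum sets the lines apart from the parental cells but does not tell the isoforms apart, so it does not check the isoform labels. In isoform 3, 1 library had 407 TPM of HNF4A and stood apart from the other libraries of its group, and leaving it out changed no call of a Wnt target gene against the parental cells. Markers of colorectal epithelium were in part present: EPCAM, KRT8, KRT18, CDH1 and CDX2 had group means of at least 9.26 TPM, whereas CDX1 and CDH17 stayed below 0.11 TPM in every group. The summed fibroblast list (5 markers) ranged from 9.90 to 14.1 TPM with COL1A2, DCN and LUM at or near 0. The blood cell list (3 markers) rested on CD68, which ranged from 3.85 TPM in the parental cells to 33.0 TPM, with PTPRC and CD3E near 0. The endothelial list (2 markers) ranged from 1.54 to 5.77 TPM with CDH5 near 0. CD68 and PECAM1 were highest in isoform 1, and the part of these markers in the results was not tested. Between 14643 and 15364 genes per library were at 1 TPM or above.

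Of the 10 genes, 6 averaged 1 TPM or more and were tested: AXIN2, NKD1, NOTUM, ZNRF3, TCF7 and SP5. They were lower than in the parental cells far more often than higher. A gene is said to rise or fall at a Benjamini-Hochberg adjusted p under 0.05 in limma, on the log2(TPM + 1) scale, adjusted over all 15003 genes tested. Over the 72 pairs of a gene and a line, 38 fell, 2 rose and 32 did not pass, that is 52.8% lower and 2.78% higher, beside 17.9% lower and 12.8% higher over all tested genes and lines. All 12 comparisons use the same 3 parental libraries, so the lines are not independent of each other. With median-of-ratios scaling of the TPM, 34 pairs were lower and 9 higher, and all of these 34 and 2 of the 9 had passed the same way without the scaling. The corresponding shares of all tested genes were then 12.9% lower and 20.1% higher.

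The lines differed in how many of the 6 genes fell. In isoforms 7, 9 and 11 all of AXIN2, NKD1, NOTUM, ZNRF3 and SP5 fell, 5 of 6, where 26.2%, 11.8% and 24% of all tested genes fell. In isoform 9, NKD1 and ZNRF3 were lost when it was fitted with the parental libraries alone (adjusted p = 0.0729 and 0.101). In isoforms 1 and 8 AXIN2, NOTUM, ZNRF3 and SP5 fell, 4 of 6, where 38.7% and 17.5% of all tested genes fell. In isoform 4 the 4 genes that fell were AXIN2, NOTUM, ZNRF3 and TCF7, beside 10.1% of all tested genes. AXIN2, NOTUM and ZNRF3, 3 of 6, fell in isoforms 2, 3 and 10, where 35.6%, 14.7% and 20.4% of all tested genes fell. In isoform 12, 2 of 6 fell, AXIN2 and NOTUM, beside 6.65% of all tested genes.

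In isoforms 5 and 6, 0 of the 6 genes fell, where 5.22% and 4.13% of all tested genes fell. In isoform 5, NKD1 and NOTUM rose, 2 of 6, beside 9.57% of all tested genes. In isoform 6, 0 of 6 rose beside 5.94% of all tested genes, with an adjusted p of 0.118 for NKD1 and 0.0744 for NOTUM. The median log2 difference of the 6 genes was 0.15 in isoform 5 and 0.07 in isoform 6, beside 0.01 and -0.01 over all tested genes. In the other lines the median of the 6 ranged from -0.63 in isoform 7 to -0.10 in isoform 12, beside medians over all tested genes of -0.06 and -0.003 there.

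On the log2(TPM + 1) scale, falls of 1 or more were confined to NOTUM and AXIN2 among the 6 genes tested. NOTUM passed this stricter rule in isoforms 1, 7, 8, 9 and 11, and AXIN2 in isoform 9, where it no longer did with median-of-ratios scaling, without parental replicate 1 or without isoform 9 replicate 3. The share of all tested genes that fell by as much was 1.78%, 0.96%, 0.473%, 0.44% and 0.653% in isoforms 1, 7, 8, 9 and 11. That scale understates changes of genes with few TPM. In mean TPM, AXIN2 was also 65.1% lower than in the parental cells in isoform 7 and 59.0% lower in isoform 11. NKD1 and SP5 were 51.2% and 50.9% lower in mean TPM in isoform 7. Among all genes that fell in a comparison or rose in it, the fallen made up 35.3% in isoform 5 and between 41.0% and 66.2% in the other lines. With median-of-ratios scaling that share was 40.1% in isoform 5 and between 29.2% and 44.6% in the others. The scaling moved the median of all genes by 0.12 in isoform 1 and 0.11 in isoform 2, and by under 0.1 in the other lines.

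**Figure D1:**
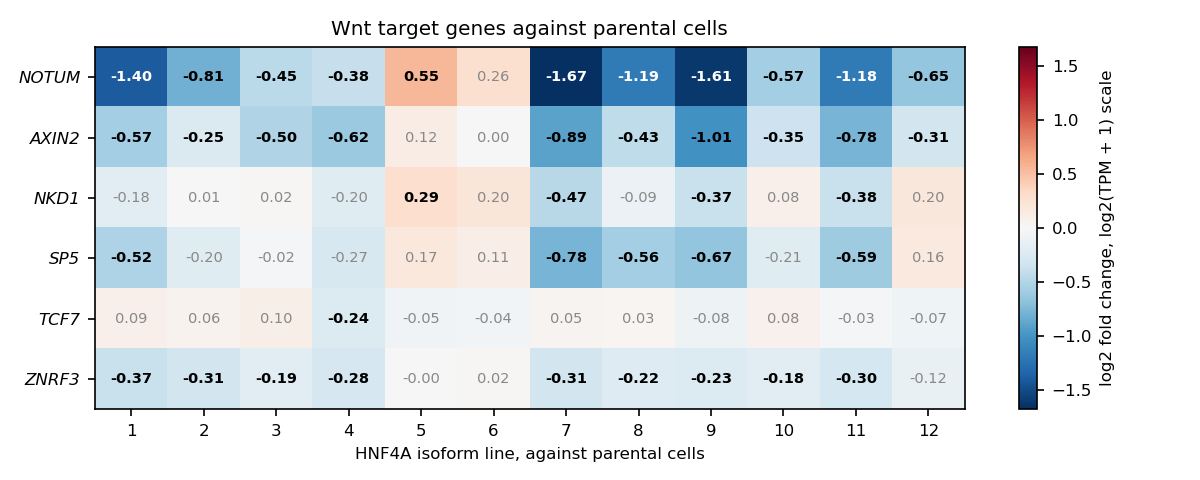
Log2 fold change of the 6 tested Wnt target genes (rows) in each of the 12 isoform lines (columns) against the parental cells, on the log2(TPM + 1) scale, with the value in each cell and bold numbers for an adjusted p under 0.05. NOTUM has the widest range, from -1.67 in isoform 7 to 0.55 in isoform 5, and isoforms 5 and 6 hold no bold fall.

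NOTUM, a secreted enzyme that inactivates Wnt proteins by removing their lipid, varied the most of the 10 genes. The gene lies on chromosome 17 from 81952507 to 81961840 on the minus strand (GRCh38). The parental libraries had 16.2, 15.9 and 15.9 TPM of NOTUM. In isoform 7 the libraries had 4.68, 4.23 and 4.10 TPM of NOTUM, a mean 72.9% lower, with a log2 fold change of -1.67 ± 0.0945 (SE) and an adjusted p of 7.52e-15. In isoform 9 the NOTUM values were 3.93, 5.09 and 4.74 TPM, and the log2 fold change was -1.61. No library of either line came near the lowest parental value.

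Isoform 1 had 5.79, 5.94 and 4.71 TPM of NOTUM, with a log2 fold change of -1.40. Isoform 8 had 6.82, 6.54 and 6.09 TPM and isoform 11 had 6.33, 6.61 and 6.51 TPM of NOTUM, with log2 fold changes of -1.19 and -1.18. In these 3 lines the NOTUM groups were also separate from the parental libraries. The falls of NOTUM were smaller in isoform 2 (8.40, 9.31 and 8.41 TPM, -0.81), isoform 12 (-0.65), isoform 10 (-0.57), isoform 3 (12.8, 11.8 and 9.86 TPM, -0.45) and isoform 4 (12.8, 12.5 and 10.9 TPM, -0.38). In all 10 of these lines every library was below the 3 parental ones. Of all tested genes, 42.8%, 41%, 24.3% and 22% were so separated in isoforms 1 to 4 and 31.7%, 25%, 17.1%, 28.6%, 31.4% and 17.6% in isoforms 7 to 12. NOTUM and AXIN2 each fell in 10 lines, as did or did more often 1.53% of all tested genes.

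In isoform 5 NOTUM was higher than in the parental cells, at 28.1, 22.6 and 21.4 TPM. The log2 fold change of NOTUM was 0.55 ± 0.0945 (SE), with an adjusted p of 0.000129 in limma. In isoform 6 the NOTUM values were 21.5, 18.4 and 18.5 TPM, and the log2 fold change of 0.26 had an adjusted p of 0.0744. Both lines had all libraries above the parental ones, where 22.3% of all tested genes were so placed in isoform 5 and 16.7% in isoform 6. With median-of-ratios scaling the isoform 6 difference passed, at an adjusted p of 0.0413.

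Ordered by level, NOTUM rose from isoform 7 through isoforms 9, 1, 8, 11, 2, 12, 10, 3 and 4 to the parental cells, isoform 6 and isoform 5. Of the 12 steps between neighbours in this order, 2 passed the test, from isoform 11 to isoform 2 (adjusted p = 0.00238) and from isoform 4 to the parental cells (adjusted p = 0.00483). The other 10 steps did not pass, although the libraries did not overlap between isoforms 1 and 8, between isoforms 2 and 12 or between the parental cells and isoform 6. In isoform 6, 16.7% of all tested genes lay wholly above the parental libraries. The share so separated between 2 lines was not computed.

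**Figure D2:**
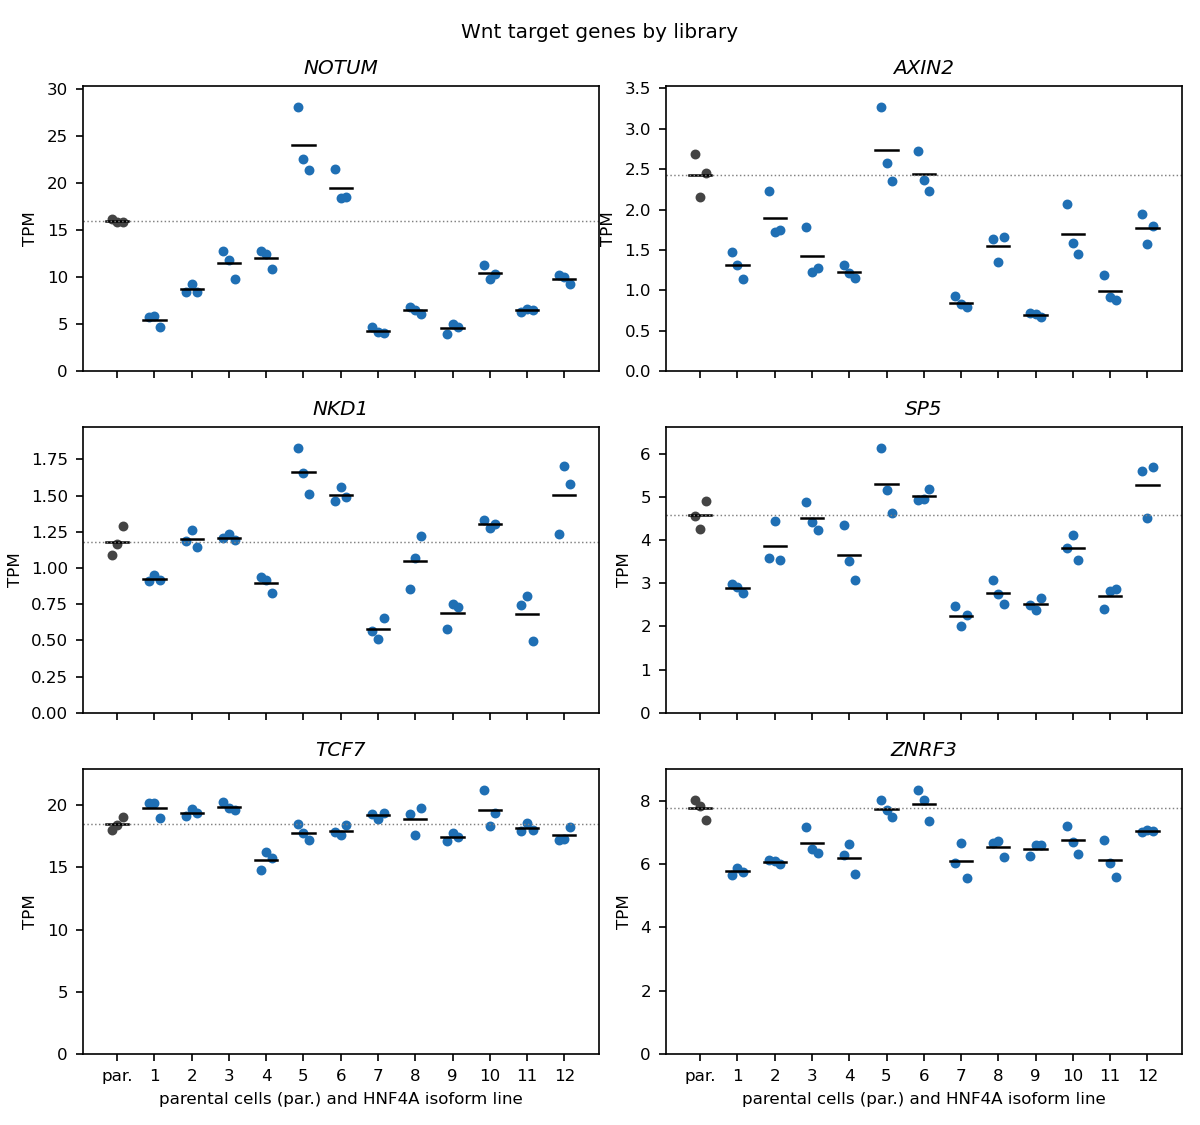
TPM of the 6 tested Wnt target genes in each of the 39 libraries, with the parental cells (par., dark points) and the isoform lines 1 to 12 along the x axis, a bar for the mean of 3 libraries and a dotted line for the parental mean. NOTUM, AXIN2, NKD1 and SP5 are lowest in isoforms 7, 9 and 11 or near them and highest in isoform 5, while TCF7 stays between 14.7 and 21.2 TPM.

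AXIN2 encodes a scaffold of the destruction complex and is the textbook feedback target of the pathway. It lies on chromosome 17 from 65528563 to 65561647 on the minus strand (GRCh38) and overlaps AC004805.1 on the same strand, so its value may include reads shared with that gene. The parental libraries had 2.69, 2.15 and 2.46 TPM of AXIN2. Isoform 9 had 0.716, 0.712 and 0.674 TPM of AXIN2, a mean 71.2% lower, with a log2 fold change of -1.01 ± 0.102 (SE) and an adjusted p of 8.67e-09. Isoform 7 had 0.928, 0.832 and 0.789 TPM and isoform 11 had 1.19, 0.918 and 0.880 TPM of AXIN2, with log2 fold changes of -0.89 and -0.78. In these 3 lines, and also in isoforms 1, 3, 4, 8, 10 and 12, every AXIN2 value was below the 3 parental ones. The shares of all tested genes so separated are those given above for NOTUM.

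AXIN2 was also lower in isoform 4 (1.31, 1.21 and 1.16 TPM, log2 fold change -0.62), isoform 1 (1.47, 1.32 and 1.14 TPM, -0.57), isoform 3 (-0.50), isoform 8 (-0.43) and isoform 10 (-0.35). For AXIN2 in isoform 10 the adjusted p rose from 0.00757 to 0.0556 without replicate 3 of that line. The AXIN2 calls in isoform 2 (2.23, 1.72 and 1.74 TPM, -0.25, adjusted p = 0.0425) and isoform 12 (1.95, 1.57 and 1.80 TPM, -0.31, adjusted p = 0.0407) were lost with a pseudocount of 0.1, with no filter, with median-of-ratios scaling and without parental replicate 1, at adjusted p between 0.0521 and 0.182. Within the same range, both calls were also lost with the 2 groups alone, without parental replicate 3 and without replicate 2 or 3 of the line. In isoform 5 (3.27, 2.58 and 2.36 TPM) and isoform 6 (2.73, 2.36 and 2.23 TPM) the AXIN2 values overlapped the parental ones. The log2 differences there were 0.12 and 0.004, with adjusted p of 0.515 and 0.987. Of the 12 neighbours in the order of AXIN2 levels, only isoform 2 and the parental cells differed at an adjusted p under 0.05 (0.0425).

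NKD1, which binds Dishevelled and dampens the signal, was near 1 TPM throughout. It lies on chromosome 16 from 50548330 to 50649249 on the plus strand (GRCh38), with antisense genes on the other strand and AC007608.4 on its own. The parental libraries had 1.09, 1.17 and 1.29 TPM of NKD1. NKD1 fell in isoform 7 (0.566, 0.509 and 0.655 TPM, log2 fold change -0.47 ± 0.0793 SE, adjusted p = 1.8e-05), isoform 11 (0.746, 0.808 and 0.496 TPM, -0.38) and isoform 9 (0.578, 0.751 and 0.733 TPM, -0.37). In isoform 5 NKD1 rose to 1.82, 1.66 and 1.51 TPM, a log2 fold change of 0.29 with an adjusted p of 0.0129. That rise of NKD1 was lost without the isoform 5 library at 1.82 TPM (adjusted p = 0.0834) or without parental replicate 1 (adjusted p = 0.0649). It was also lost with the 2 groups alone (adjusted p = 0.0761). The parental and isoform 5 libraries did not overlap, nor did those of isoform 6 (1.46, 1.56 and 1.49 TPM, 0.20, adjusted p = 0.118). So placed above the parental libraries were 22.3% of all tested genes in isoform 5 and 16.7% in isoform 6. NKD1 fell in 3 lines, and 33% of all tested genes fell in as many or more. No neighbours in the order of NKD1 levels differed at an adjusted p under 0.05.

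ZNRF3 and RNF43 are membrane ubiquitin ligases that remove Frizzled from the cell surface. ZNRF3 lies on chromosome 22 from 28883592 to 29057487 on the plus strand (GRCh38), with an antisense gene, and RNF43 on chromosome 17 from 58352500 to 58417595 on the minus strand. The parental libraries had 8.03, 7.85 and 7.41 TPM of ZNRF3. ZNRF3 fell in 9 lines, as did or did more often 3.37% of all tested genes, but by little: the log2 fold change was between -0.37 in isoform 1 (5.67, 5.89 and 5.75 TPM, adjusted p = 7.16e-06) and -0.18 in isoform 10. No fall of ZNRF3 exceeded 25.7% of the parental mean. Median-of-ratios scaling ended the ZNRF3 calls in isoforms 3 and 10, at adjusted p of 0.102 and 0.0745. The same 2 ZNRF3 calls were lost when the line was fitted with the parental libraries alone (0.102 and 0.0677), without parental replicate 1 (0.0800 and 0.0919) and without parental replicate 2 (0.0641 and 0.0669). In isoform 3 the ZNRF3 call was also lost without its replicate 2 or 3 (0.0900 and 0.0990), and in isoform 10 without its replicate 2 or 3 (0.0593 and 0.129). In isoforms 5 and 6 ZNRF3 was at 8.04, 7.72 and 7.49 TPM and at 8.35, 8.01 and 7.37 TPM, overlapping the parental libraries. RNF43 was at 0.041 TPM on average, at most 0.101 TPM in any library and above 0 in all 39.

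LGR5, a receptor for R-spondins that marks intestinal stem cells, and ASCL2, a transcription factor of the same cells, were barely detected. LGR5 lies on chromosome 12 from 71439770 to 71586310 on the plus strand and ASCL2 on chromosome 11 from 2268495 to 2270952 on the minus strand (GRCh38). LGR5 was at most 0.0889 TPM and listed at 0 in 8 of the 39 libraries. ASCL2 was at most 0.0706 TPM and listed at 0 in 20 libraries. In the authors' deposited tables the mean normalised count of a comparison was between 3.86 and 7.46 for LGR5, between 0.237 and 1.14 for ASCL2 and between 3.78 and 8.39 for RNF43. With no filter on low values none of RNF43, LGR5, ASCL2 and LEF1 passed an adjusted p of 0.05 in any line. The log2 difference of LGR5 was then between -0.060 in isoform 2 and 0.029 in isoform 9, always against the same parental libraries. Its smallest adjusted p was 0.0514, in isoform 2.

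TCF7 and LEF1 encode DNA-binding partners of beta-catenin, and SP5 encodes a transcription factor of the Sp family that represses other Wnt targets. LEF1, on chromosome 4 from 108047545 to 108168956 on the minus strand (GRCh38), was listed at 0 in 33 of the 39 libraries and reached at most 0.0432 TPM. SP5 lies on chromosome 2 from 170715351 to 170718078 on the plus strand, and its promoter was printed above. The parental libraries had 4.56, 4.27 and 4.90 TPM of SP5. SP5 fell in isoform 7 (2.47, 2.01 and 2.26 TPM, log2 fold change -0.78 ± 0.0961 SE, adjusted p = 1.02e-07), isoform 9 (2.50, 2.39 and 2.65 TPM, -0.67), isoform 11 (2.40, 2.81 and 2.88 TPM, -0.59), isoform 8 (3.08, 2.75 and 2.52 TPM, -0.56) and isoform 1 (2.97, 2.92 and 2.78 TPM, -0.52). In these 5 lines, and in isoform 10 where SP5 did not pass, every SP5 value was below the lowest parental one. So separated were 42.8% of all tested genes in isoform 1 and 31.7%, 25%, 17.1%, 28.6% and 31.4% in isoforms 7 to 11. Of all tested genes, 20.5% fell in 5 or more lines.

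In the other 7 lines SP5 did not pass. Its values in isoform 5 were 6.13, 5.17 and 4.64 TPM and in isoform 12 were 5.59, 4.51 and 5.70 TPM, log2 differences of 0.17 and 0.16 (adjusted p = 0.257 and 0.273). Among neighbours in the order of SP5 levels, isoform 1 and isoform 4 differed (adjusted p = 0.0292).

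TCF7 was on average the most abundant of the 10 genes and the steadiest of the 6 tested. It lies on chromosome 5 from 134114711 to 134151865 on the plus strand (GRCh38) and overlaps SKP1 on the other strand. The parental libraries had 18.0, 18.4 and 19.0 TPM of TCF7. Its one fall was in isoform 4, at 14.7, 16.2 and 15.7 TPM, a log2 fold change of -0.24 ± 0.0452 (SE) with an adjusted p of 0.000386. In the other 11 lines the log2 difference of TCF7 was between -0.08 and 0.10 and did not pass. With median-of-ratios scaling TCF7 rose in isoforms 1, 2, 3, 7 and 10, by 0.22, 0.18, 0.16, 0.14 and 0.12, so whether TCF7 rose in those lines depended on the scaling. In level, isoform 4 was the lowest group and differed from the next, isoform 9 (adjusted p = 0.00949).

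The 12 isoforms differ in their N-terminal and C-terminal forms by the standard nomenclature, which the labels do not give, so lines with the same C-terminal form were compared directly. Isoforms 4, 5 and 6 differ in this way from isoforms 1, 2 and 3, and isoforms 7, 8 and 9 from isoforms 1, 2 and 3. NOTUM was higher in all 3 lines of isoforms 4 to 6 than in their partners and lower in all 3 lines of isoforms 7 to 9. These 6 comparisons share the isoform 1, 2 and 3 libraries, and each isoform again stands for 1 line.

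NOTUM differed by 1.01 between isoforms 4 and 1, by 1.36 between isoforms 5 and 2 and by 0.71 between isoforms 6 and 3 (SE 0.0945 each, adjusted p = 1.68e-10, 3.33e-13 and 1.13e-06). In isoform 4 minus 1, NOTUM and SP5 were higher, 2 of 6, beside 33.4% of all tested genes, and TCF7 was lower, beside 21.8%. In isoform 5 minus 2, NOTUM, SP5, AXIN2, ZNRF3 and NKD1 were higher, 5 of 6, beside 35.8% of all tested genes, and TCF7 was lower, beside 18.1%. In isoform 6 minus 3, NOTUM, AXIN2 and ZNRF3 were higher, 3 of 6, beside 12.6% of all tested genes, and TCF7 was lower, beside 9%. TCF7 thus moved against NOTUM in each of these comparisons, by -0.32, -0.12 and -0.14 (adjusted p = 3.83e-07, 0.0307 and 0.0257). The SP5 call in isoform 4 minus 1 was lost with median-of-ratios scaling (adjusted p = 0.0949) and with no filter (0.0594). It was also lost with the 2 groups alone (0.0985) and without isoform 1 replicate 2 or 3 (0.0522 and 0.0845). Without the isoform 4 library at 4.35 TPM of SP5 the difference was 0.14 (adjusted p = 0.242). TCF7 no longer passed in isoform 5 minus 2 without isoform 2 replicate 2 or 3 (0.0869 and 0.0601). Nor did it pass there without the isoform 5 library at 17.7 or at 17.2 TPM of TCF7 (0.0682 and 0.133). In isoform 6 minus 3 TCF7 was lost with the 2 groups alone (0.101). The same held without replicate 1 or 2 of either line (0.0594 to 0.0987). ZNRF3 was lost there with the 2 groups alone (0.109). It was also lost without isoform 3 replicate 2 or 3 (0.0542 and 0.0630) or isoform 6 replicate 1 (0.0729).

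In isoform 7 minus 1, NOTUM (-0.28), AXIN2 (-0.32), NKD1 (-0.29) and SP5 (-0.26) were lower, 4 of 6, beside 16.8% of all tested genes. In isoform 8 minus 2, NOTUM (-0.38) and SP5 (-0.36) were lower, 2 of 6, beside 14.7%. In isoform 9 minus 3, NOTUM, SP5, AXIN2, NKD1 and TCF7 were lower, 5 of 6, beside 9.21%, and the NOTUM difference was -1.16 ± 0.0945 (SE, adjusted p = 2.86e-10). The calls in isoform 7 minus 1 were the least secure, with 0 left when the 6 libraries were fitted alone and 1 left without isoform 1 replicate 1, and in isoform 9 minus 3 NOTUM and SP5 passed when fitted alone. HNF4A itself differed between some partners, by 0.47 in isoform 5 minus 2, 0.74 in isoform 6 minus 3 and 0.56 in isoform 9 minus 3 (adjusted p = 0.00424, 0.000157 and 0.00397), and its part in the results was not tested. Without the isoform 3 library low in HNF4A, a choice made after seeing the data, HNF4A differed by 0.42 in isoform 6 minus 3 and by 0.23 in isoform 9 minus 3 (adjusted p = 0.000100 and 0.0273). In isoform 4 minus 1 it differed by 0.13 (adjusted p = 0.448).

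**Figure D3:**
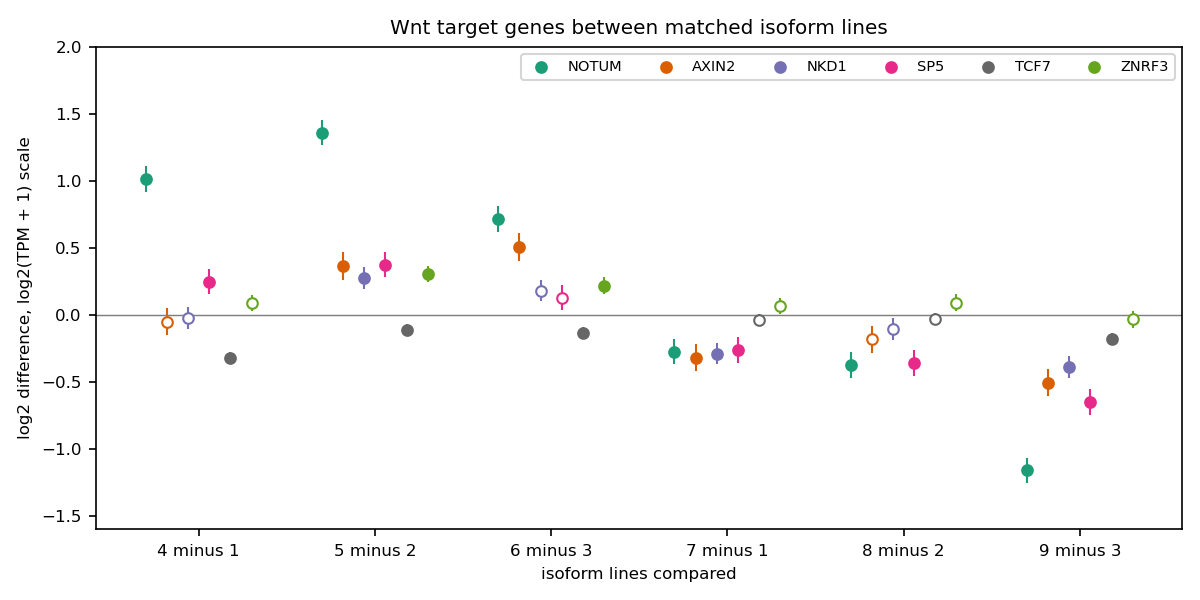
Log2 difference (log2(TPM + 1) scale) of the 6 tested Wnt target genes between lines that share a C-terminal form, with bars of 1 standard error, filled points at an adjusted p under 0.05 and open points otherwise. NOTUM lies above 0 in the 3 comparisons on the left (0.71 to 1.36) and below 0 in the 3 on the right (-1.16 to -0.28).

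With the 12 lines as units, in limma with both terminal forms as terms, 1 of the 6 genes passed in 1 of 5 contrasts. NOTUM was higher in isoforms 4 to 6 than in isoforms 1 to 3, by 1.03 ± 0.26 (SE, adjusted p = 0.0163), where 22.1% of all tested genes were higher. The call was lost with no filter on low values (adjusted p = 0.063). TCF7 was at -0.19 (adjusted p = 0.0636) in that contrast. In isoforms 7 to 9 against 1 to 3, NOTUM was at -0.60 (adjusted p = 0.149) and SP5 at -0.42 (adjusted p = 0.114), both with an unadjusted p under 0.05, and 0 of 6 passed, beside 4.95% of all tested genes lower. In isoforms 10 to 12 against 7 to 9, NOTUM was at 0.69 and SP5 at 0.46 (unadjusted p = 0.0266 and 0.0210), while 0% of all tested genes passed. The contrasts of the C-terminal forms passed for 0 of the 6 genes, also at an unadjusted p, and for 0% and 0.0133% of all tested genes.

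The authors' deposited tables, which compare each line with the parental cells by their own count-based test, gave NOTUM lower at an adjusted p under 0.05 in 10 lines and higher in 2. The second of these was isoform 6, where the authors' deposited table had an adjusted p of 0.000695. In the authors' deposited tables AXIN2 was lower in 9 lines, with isoform 2 not past (adjusted p = 0.23), ZNRF3 in 8 and SP5 in 5. NKD1 was lower in 4 and higher in 3 lines there, and TCF7 lower in 1 and higher in 2, isoforms 1 and 2, in the authors' deposited tables. The authors' deposited log2 fold change of AXIN2 in isoform 9 was -1.37, against -1.01 on the log2(TPM + 1) scale used here, which understates changes of genes with few TPM.

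AXIN2, NKD1, NOTUM, SP5 and ZNRF3 varied together across the groups. Over the 13 group means of log2(TPM + 1), Pearson's r between any pair of these 5 genes was between 0.72 and 0.93. TCF7 had an r between -0.25 and 0.05 with each of them. Over the 39 libraries, whose replicates share a group, the genes with a pattern most like AXIN2 were OLFML2A (r = 0.88), HAPLN3 (0.88), MMP17 (0.88), NPTXR (0.88) and KCNN1 (0.87). NOTUM came 11th, NKD1 14th, SP5 23rd and ZNRF3 116th among the other tested genes, and TCF7 7360th. The genes most like NOTUM were IGF2 (r = 0.95), TLE2 (0.95), ZDHHC8P1 (0.94), KCNN1 (0.94) and HAPLN3 (0.94), of which TLE2 is a co-repressor that binds TCF/LEF proteins. By likeness to NOTUM, SP5 came 113th, AXIN2 194th, NKD1 479th, ZNRF3 612th and TCF7 10908th.

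The rest of the pathway was described through 6 lists of other genes, whose counts stand beside the shares of all tested genes that fell (given above for each line) or rose. Of all tested genes, 19.8%, 19.7%, 11.2% and 6.26% rose in isoforms 1 to 4 and 13.4%, 16.9%, 10.9%, 17%, 14.5% and 7.92% in isoforms 7 to 12. Parental cells had 302.6 ± 5.2 TPM (SD, n = 3) of CTNNB1, whose log2 difference was between -0.13 and 0.12 in the 12 lines. It passed in 1 line, isoform 7, as a fall of 0.13 (adjusted p = 0.0238). APC, a core part of the destruction complex, had a smallest adjusted p of 0.395 over the 12 lines. TCF7L2, the TCF family member best known in colon, was at 65.5 TPM in the parental cells, fell in 6 lines and was lowest in isoform 2 (44.2 TPM, log2 fold change -0.56, adjusted p = 3.23e-07).

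Among 20 other reported targets of beta-catenin, 15 were tested. Of these 15, 11 fell and 3 rose in isoform 1, 12 fell and 2 rose in isoform 2, and 8 fell and 1 rose in isoform 3, where 38.7%, 35.6% and 14.7% of all tested genes fell. In isoforms 4, 5 and 6 the fallen were 1, 2 and 4 of 15, beside 10.1%, 5.22% and 4.13% of all tested genes, and the risen were 3, 3 and 1. In isoforms 7, 8 and 9 the fallen were 9, 9 and 7, beside 26.2%, 17.5% and 11.8%, and the risen 1, 1 and 2. In isoforms 10, 11 and 12 the fallen were 8, 10 and 4, beside 20.4%, 24% and 6.65%, and the risen 2, 1 and 2. The median log2 difference of the 15 genes was -0.59 in isoform 2 and 0.12 in isoform 5, beside -0.09 and 0.01 over all tested genes. This list holds genes that other pathways also regulate.

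SOX4, a transcription factor of progenitor cells, fell in 8 of the lines, most in isoform 7 (206.3 ± 3.1 TPM in parental cells, 63.5 ± 4.8 TPM in the line, log2 fold change -1.69, adjusted p = 1.14e-16). In isoforms 4 and 5 SOX4 rose, by 0.51 and 0.56. EPHB2 and EPHB3, receptors that position cells along the crypt, fell in 9 and 8 lines. EPHB2 was lowest in isoform 2 (14.2 TPM in parental cells, 6.11 TPM, -1.10) and EPHB3 in isoform 7 (3.08 TPM in parental cells, 0.860 TPM, -1.13). Against these falls, ETS2, a transcription factor of the ETS family, rose in 9 lines, from 10.6 ± 0.88 TPM to 57.0 ± 4.3 TPM in isoform 1 (2.32, adjusted p = 1.31e-19).

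**Figure D4:**
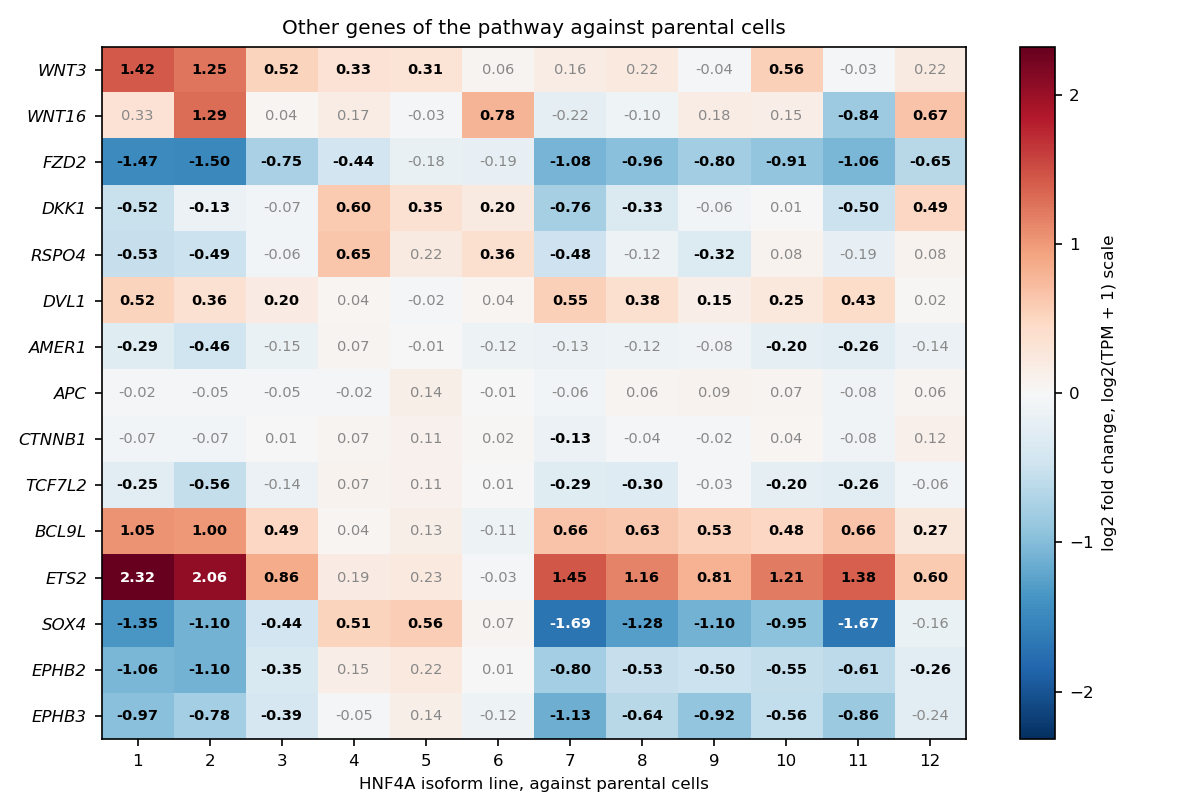
Log2 fold change (log2(TPM + 1) scale) of 15 other genes of the pathway, named by a fixed rule (rows), in the 12 isoform lines (columns) against the parental cells, with bold numbers for an adjusted p under 0.05. ETS2 reaches 2.32 in isoform 1 and SOX4 -1.69 in isoform 7, while CTNNB1 and APC stay between -0.13 and 0.14.

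Of the 21 ligands and secretion genes, 10 were tested. Of these, 5 fell and 2 rose in isoforms 1, 2 and 11, where 38.7%, 35.6% and 24% of all tested genes fell, and in the other 9 lines between 0 and 4 fell and between 0 and 3 rose. WNT3 rose in 6 lines, from 4.25 ± 0.25 TPM to 13.1 ± 0.83 TPM in isoform 1 (1.42, adjusted p = 5.39e-14). WNT16 rose in 3 lines, most in isoform 2 (7.40 to 19.5 TPM, 1.29, adjusted p = 4.51e-07), and fell in isoform 11. Of the 17 receptors, 14 were tested. The receptors that fell numbered 11, 9, 3, 1, 0 and 0 in isoforms 1 to 6 and 7, 4, 5, 3, 6 and 1 in isoforms 7 to 12. In isoform 5, 4 of the 14 receptors rose, beside 9.57% of all tested genes, and in each other line 1 or 2 rose. FZD2, a Frizzled receptor, fell in 10 lines, all but isoforms 5 and 6, with the lowest level in isoform 2 (19.9 ± 0.45 to 6.41 ± 0.82 TPM, -1.50, adjusted p = 5.09e-17).

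Of the 16 secreted modulators, 4 were tested, and 3 fell in isoforms 1 and 2, 2 in isoform 7 and 0 or 1 in each other line. In isoform 6, 3 of these 4 rose, and 0 to 2 rose in each other line. DKK1, a secreted blocker of LRP receptors, rose in 4 lines, most in isoform 4 (419.8 to 638.5 TPM, 0.60), and fell in 5, most in isoform 7 (to 247.1 TPM, -0.76, adjusted p = 1.97e-14). RSPO4, an R-spondin that enhances Wnt signalling, rose in 2 lines and fell in 4, with the largest change in isoform 4 (2.46 to 4.42 TPM, 0.65, adjusted p = 7.73e-07). Of the 15 genes of the cytoplasmic relay and destruction complex, all tested, 3 rose and 4 fell in isoform 1, where 19.8% of all tested genes rose and 38.7% fell. In the other 11 lines 0 to 3 of the 15 rose and 0 to 3 fell. DVL1, a Dishevelled that passes the signal from Frizzled, rose in 8 lines, most in isoform 7 (84.2 to 123.4 TPM, 0.55), and AMER1, a partner of APC, fell in 4, most in isoform 2 (5.35 to 3.60 TPM, -0.46). Of the 12 nuclear partners, 11 were tested. The nuclear partners that fell numbered 6, 5, 3, 1, 0 and 1 in isoforms 1 to 6 and 7, 6, 4, 3, 7 and 0 in isoforms 7 to 12. In isoform 5, 5 of the 11 rose, beside 9.57% of all tested genes, and 0 to 2 rose in each other line. BCL9L, a co-activator of beta-catenin, rose in 9 lines, most in isoform 1 (35.2 to 73.6 TPM, 1.05, adjusted p = 1.8e-13).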

How the data were processed

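Poly(A) RNA of 39 libraries was sequenced after strand-keeping library preparation, per the labels' protocols. The submitters' processing notes name Trimmomatic 0.36, FastQC 0.11.5, kallisto 0.44.0, DESeq2 1.22.2 and the genome build GRCh38.p12. The authors deposited 13 tables of 45446 rows with TPM per library, which sum to between 999972.6 and 999987.7. Per the file headers, 12 of them also hold the authors' mean normalised count (a signal summed over genes to between 50609338 and 56136330, the one measure of depth in the files), their log2 fold change with its error, a test statistic (a score) and p-values. Whether the authors' log2 fold changes were shrunk is not given in the sources used here. TPM does not give the depth of a library, so no counting interval is given.

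The 12 rows of HNF4A were summed, which left 45435 genes. The 15003 genes that averaged 1 TPM or more were fitted as log2(TPM + 1) with limma 3.58.1 in R 4.3.3, in 1 model of 39 libraries with 26 residual degrees of freedom and the mean-variance trend. P-values were adjusted by Benjamini-Hochberg within each comparison, and the procedure was tested on simulated data. Nothing in the labels says that replicates came from separate cultures, so p-values measure the spread between these libraries, which may be technical. No 2 libraries shared more than 0.0077% of their values, and all were counted. Over all tested genes, library numbers did not show a pairing of the samples, which does not settle it for single genes. Column names gave the group of every library. The titles of isoforms 4 and 5 repeat a library code within the group, so their columns could not be matched to replicate numbers. All 10 genes are named. From each list those past an adjusted p of 0.05 and an absolute log2 fold change of 1 in a line are named, at most 4, or else the 2 with the largest change past that p, with CTNNB1, APC and TCF7L2 in any case, and so are the 5 genes most like AXIN2 and NOTUM. The genes, lists and tests were chosen with earlier results of these data known. Positions come from GENCODE 29 (GRCh38).

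The alternatives tried were a pseudocount of 0.1, no filter, a filter of 5 TPM, median-of-ratios scaling, each library left out, the 2 groups fitted alone and a replicate block. No row of mitochondrial genes was found, so RNA quality was not described by their share.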

Additional observations from a re-analysis of the deposited data

Results flagged for a closer look

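The response of NOTUM against the parental cells differed between lines that share a C-terminal form, by a test of the difference itself. NOTUM was higher in isoform 4 than in isoform 1 by 1.01 ± 0.0945 (SE) on the log2(TPM + 1) scale, with an adjusted p of 1.68e-10 in limma. It was higher in isoform 5 than in isoform 2 by 1.36, with an adjusted p of 3.33e-13. It was lower in isoform 9 than in isoform 3, by -1.16, with an adjusted p of 2.86e-10. In all 3 comparisons the libraries of the 2 lines did not overlap: 12.8, 12.5 and 10.9 against 5.79, 5.94 and 4.71 TPM, 28.1, 22.6 and 21.4 against 8.40, 9.31 and 8.41 TPM, and 3.93, 5.09 and 4.74 against 12.8, 11.8 and 9.86 TPM. The share of all tested genes so separated between 2 lines was not computed. At an adjusted p under 0.05, 33.4% and 35.8% of all tested genes were higher in isoforms 4 minus 1 and 5 minus 2. In isoform 9 minus 3, 9.21% were lower. Groups of 3 libraries are too small for a check of single outlying libraries.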

How the results depend on the processing

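No difference of a tested gene that passed in the main fit or in an alternative run had the opposite direction in the other. Differences that passed in neither were not compared for direction. The total of calls over the 72 pairs of a gene and a line was 40, and was 38 with a pseudocount of 0.1, 38 with no filter, 43 with median-of-ratios scaling, 34 with the 2 groups fitted alone and 21 with a filter of 5 TPM, where fewer of the genes are tested. With a pseudocount of 0.1, the genes past the stricter rule went from 1 to 2 in isoforms 7 and 11, and those past the adjusted p in isoform 12 from 2 to 1. With no filter isoform 12 had 1 and the contrast of isoforms 4-6 minus 1-3 had 0 (NOTUM, adjusted p = 0.063). With 5 TPM the counts were 2 in isoforms 1, 7, 8, 9 and 11 and in isoform 9 minus 3, 1 in isoforms 5 and 12, 1 past the stricter rule in isoform 9, 3 in isoform 5 minus 2, and 1 in isoforms 7 minus 1 and 8 minus 2. With scaling, isoform 6 had 1 gene and 20 genes of the lists (12 without it), isoform 9 had 1 past the stricter rule and the contrast of isoforms 4-6 minus 1-3 had 2. With the 2 groups alone, isoforms 5, 6 and 12 had 1, isoform 9 had 3 (and 17 list genes against 29), isoforms 6 minus 3 and 9 minus 3 had 2, and isoform 7 minus 1 had 0. The cause of these changes was not tested.

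Over all tested genes, libraries with the same replicate number correlated between -0.047 and 0.187 in 30 pairs, which did not show a pairing. This does not settle it for single genes. By column number, library 1 had the highest AXIN2 value of its group in every group but isoform 8. A fit with the replicate block, which leaves out isoforms 4 and 5, gave 36 calls in the remaining 10 lines, which had 34 without the block. It added NOTUM in isoform 6, which went from 0 to 1 (adjusted p = 0.029), SP5 in isoform 2 (-0.20, adjusted p = 0.0481) and, between partners, AXIN2 in isoform 8 minus 2 (-0.18, adjusted p = 0.0390), and it ended no call of a gene.

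With each library left out in turn, the count ranged from 1 to 2 past the stricter rule in isoform 9 (1 without parental replicate 1 or isoform 9 replicate 3), from 1 to 3 in isoform 10 (1 without its replicate 3), from 1 to 3 in isoform 12, from 1 to 2 in isoform 5, from 2 to 4 in isoform 6 minus 3, from 1 to 4 in isoform 7 minus 1 and from 1 to 2 in the contrast of isoforms 4-6 minus 1-3. List genes past the test ranged from 11 to 15 in isoform 5 (18 with all libraries) and from 7 to 12 in isoform 6. For isoform 5 the lowest count came without the library at 28.1 TPM of NOTUM and for isoform 6 without replicate 1. Of the single genes, 42 calls were weaker and 6 stronger in these fits. TPM near 1, as for NKD1, and the lack of counts limit the precision.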
